A study of Homo sapiens with 6 samples.

Results

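The HOX cluster genes are the 39 protein-coding genes of the RefSeq GRCh38.p14 gene table whose symbol is HOXA, HOXB, HOXC or HOXD followed by a number, out of 20037 protein-coding genes on chromosomes 1 to 22, X and Y. The HOXA cluster has 11 of them on chromosome 7, HOXB 10 on chromosome 17, HOXC 9 on chromosome 12 and HOXD 9 on chromosome 2. For each gene, a window was taken from 5 kb before to 5 kb after the gene body, and the peaks that touched it were collected. The windows had a median of 13.8 kb and overlapped one another, so that the 39 windows together covered 459.3 kb. Neighbouring genes therefore shared peaks and were not independent of each other.

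The study mapped genome occupancy by MYT1L, a DNA-binding zinc finger protein found mainly in neurons. It holds 4 CUT&RUN libraries with a MYT1L antibody and 2 control libraries with IgG, which recognises no chromatin protein. CUT&RUN ties a nuclease to the antibody on chromatin and sequences the DNA it frees. All 6 libraries came from wild-type cells of H1, an established human embryonic stem cell line, at day 30, which the series' text calls cortical interneurons derived from the stem cells and the sample labels call embryonic stem cells. The labels give 1 cell line and do not say whether replicates were separate cultures, so the p-values below measure the spread between these libraries, which may be technical. Peak lists carry no expression values, so the cell type could not be checked against marker genes.

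HOX genes encode homeodomain transcription factors that give cells their position along the body axis. Their order along the chromosome follows the order in which they act. Paralog groups 1 to 3, called anterior here, act in the hindbrain, groups 4 to 8, called central, act further down the axis, and groups 9 to 13, called posterior, act mainly from the lower trunk to the tail and in the limbs. The forebrain, from which cortical interneurons come, lies in front of the HOX domains, and in cells that do not use them the clusters are typically kept silent by Polycomb proteins. MYT1L is known for repressing genes of other cell types in neurons, and its family recognises the DNA word AAGTT.

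Promoter sequences are shown first for the members whose promoter was touched by a MYT1L peak. RefSeq promoter windows, from 250 bases before to 50 bases after a gene start, were at hand for 20 of the 39 members, giving 26 distinct windows, because HOXA3 has 7 starts in the table, HOXA10 has 2, and HOXC4 and HOXC5 share 1. Peaks touched 3 of these 26 windows, those of HOXD8, HOXD1 and HOXA13. These 3 were chosen for printing after their values were seen, because no promoter overlapped a peak region shared by 3 libraries. The 250 bases before the start are printed 5′ to 3′ on the strand of the gene (GRCh38.p14), and capitals mark bases under a MYT1L peak.
HOXD8: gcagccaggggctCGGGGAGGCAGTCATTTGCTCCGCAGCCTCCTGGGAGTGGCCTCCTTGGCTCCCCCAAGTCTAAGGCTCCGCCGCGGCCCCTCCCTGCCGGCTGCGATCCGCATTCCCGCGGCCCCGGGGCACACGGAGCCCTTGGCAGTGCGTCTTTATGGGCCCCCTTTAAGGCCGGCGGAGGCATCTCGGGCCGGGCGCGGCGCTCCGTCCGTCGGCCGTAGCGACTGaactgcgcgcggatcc
HOXD1: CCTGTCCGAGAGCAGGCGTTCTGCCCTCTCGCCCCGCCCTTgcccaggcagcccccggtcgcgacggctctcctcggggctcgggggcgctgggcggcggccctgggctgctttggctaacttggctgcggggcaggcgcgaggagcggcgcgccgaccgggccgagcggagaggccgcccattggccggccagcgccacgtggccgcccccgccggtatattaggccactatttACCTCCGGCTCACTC
HOXA13: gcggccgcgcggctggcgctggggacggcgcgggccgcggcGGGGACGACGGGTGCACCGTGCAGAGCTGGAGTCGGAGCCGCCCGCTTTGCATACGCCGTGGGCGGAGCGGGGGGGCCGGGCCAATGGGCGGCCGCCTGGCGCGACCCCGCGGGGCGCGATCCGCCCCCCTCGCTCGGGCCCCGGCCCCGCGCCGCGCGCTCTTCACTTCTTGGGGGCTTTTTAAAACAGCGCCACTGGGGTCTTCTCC
The HOXD8 stretch is chr2:176129455-176129704 on the plus strand, with 221 bases under a peak of MYT1L replicate 4. The HOXD1 stretch is chr2:176188418-176188667 on the plus strand, with 56 bases under peaks of replicates 1 and 4, 1 peak at each end. The HOXA13 stretch is chr7:27200092-27200341 on the minus strand, with 209 bases under a peak of replicate 4. All 3 are rich in G and C, at 72.4% in HOXD8, 74.8% in HOXD1 and 78.0% in HOXA13. The word AAGTT is absent on either strand from HOXD8 and HOXA13, and HOXD1 holds it 1 time, read as AACTT, outside the bases under a peak.

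Few of the HOX promoter windows in the table were touched. A peak of any MYT1L library overlapped 3 of the 26 HOX windows (11.5%), against 58.5% of 22078 protein-coding promoter windows and 90.5% of the 9150 windows with at least as many CpG dinucleotides as the HOX median of 19.5. None of the 7 HOXA3 windows was touched, and without them the count was 3 of 19 (15.8%). The CpG cut, like the G and C cut below, is the HOX median, so part of the 26 HOX windows falls below it. The touched windows of HOXD8, HOXD1 and HOXA13, with 28, 31 and 40 CpG dinucleotides, lie above it. The HOX share among CpG-rich windows is thus higher than 11.5%. The difference from other promoters was not tested. A region shared by at least 3 MYT1L libraries and free of IgG peaks overlapped 0 of the 26, against 35.3% of all promoter windows, 50% of the 13232 with a G and C content at or above the HOX median of 58.8%, and 59.3% of the CpG-rich ones. The word AAGTT, counted on both strands in the 250 bases before the start, was present in 14 of 26 HOX promoters (53.8%) and in 27.0% of all protein-coding promoters. HOXA3 alone supplied 6 of these 14 with its 7 starts, and 8 of the other 19 windows (42.1%) held the word. These counts describe the windows in the table, and 19 members are not among them.

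The peak lists differed in length and strength, and the number of HOX peaks moved with them. MYT1L replicates 1 to 4 had 27926, 12310, 18966 and 30086 peaks, and the IgG replicates had 976 and 998. HOX windows held 16, 4, 8 and 20 MYT1L peaks, in the same order as the list lengths, and 0 IgG peaks in either control. As a share of each list the HOX peaks made up 0.0573%, 0.0325%, 0.0422% and 0.0665%. The lists give no read totals, so the depth is unknown, but the height of each HOX peak could be recovered and ran from 7 to 19 overlapping fragments, with a median of 11.5.

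MYT1L libraries averaged 12.0 ± 7.30 HOX peaks (SD, n = 4) and IgG libraries 0 (n = 2), a difference of 12 (exact permutation test over 15 splits, two-sided, p = 0.133, where 0.0667 is the smallest possible). As a share of the list the values were 0.0496% ± 0.0152 and 0% (two-sided exact permutation p = 0.0667, which is as low as this design goes). The IgG lists are too short to show that HOX peaks are absent from them. A count of 0 allows a share of up to 0.307% in IgG replicate 1 and 0.301% in replicate 2, counting error only, and all 4 MYT1L shares lie below those limits. When every list was reduced to its 976 strongest peaks, HOX windows held 0 peaks in all 6 libraries.

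Of the 39 genes, 28 (71.8%) had a peak of at least 1 MYT1L library in their window, against a background of 84.1% of all protein-coding genes and 81.1% of the 12260 genes whose body is as long as those of HOX genes (1677 to 45574 bp). By number of libraries, 14 genes had a peak in 1, 8 in 2, 5 in 3 and 1 in all 4. The 6 genes with peaks of at least 3 libraries were HOXA3, HOXB3, HOXB4, HOXC4, HOXD1 and HOXD8, while 56.8% of all genes and 49.3% of genes of HOX length reached that number. HOXB3 was the gene with all 4. The 11 genes with no peak were HOXA2, HOXA4, HOXA11, HOXB5, HOXB6, HOXB7, HOXB13, HOXC8, HOXC10, HOXD4 and HOXD13. No HOX window held an IgG peak, against 4.16% of all genes and 3.07% of genes of HOX length.

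Peaks of different libraries rarely fell at the same place. A region, meaning a run of MYT1L peaks joined by at least 1 bp of overlap, was called reproducible when at least 3 of the 4 MYT1L libraries contributed a peak and no IgG peak touched it. HOXD8 was the 1 gene of 39 (2.56%) with a reproducible region, against 48% of all protein-coding genes and 42% of genes of HOX length. A region of at least 2 libraries lay in the windows of 9 genes (23.1%), against 65.3% and 60%. These 9 were HOXA13, HOXB3, HOXC4, HOXC5, HOXC6, HOXC12, HOXD1, HOXD3 and HOXD8. HOXC4, HOXC5 and HOXC6 start at the same base in the table and share 1 such region. HOXB3, despite peaks of all 4 libraries, had no place where more than 2 of them met. The count of reproducible genes was 2 to 9 when 1 MYT1L library was left out and 2 of the other 3 sufficed, with 2 genes without replicate 1, 9 without replicate 2, 7 without replicate 3 and 2 without replicate 4. It was 3 when gaps of up to 500 bp between peaks were bridged, a setting added after the data were seen, and these were HOXD1, HOXD8 and HOXD9.

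**Figure D1:**
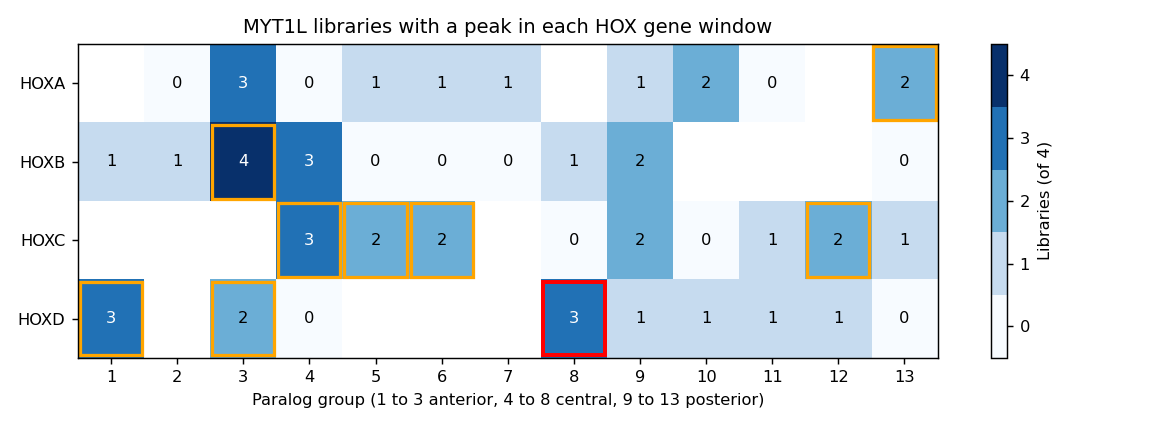
Number of MYT1L libraries (of 4) with a peak in the window of each HOX gene, by cluster (rows) and paralog group (columns); white cells without a number are genes that do not exist or are not shown. The orange outlines mark the 8 genes with a region of 2 libraries and the red outline marks HOXD8, with a region of 3. The posterior genes, in groups 9 to 13, show at most 2 libraries, and their windows reach at most 19.3 kb, against 55.6 kb at HOXA3.

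HOXD8, a central gene of the HOXD cluster, carried the region with the widest support. The region lies at chr2:176129956-176130576 (621 bp) inside the gene body, with the median of its 3 summits 486 bp after the start, and it overlaps the uncharacterised RefSeq gene LOC100129455. The fold over background, the authors' value for each peak, was 5.88 in replicate 1, 5.10 in replicate 3 and 4.95 in replicate 4, and no peak was called in replicate 2. The 3 peaks thus had like heights, with a mean fold of 5.31 ± 0.50 (SD over the 3 libraries with a peak) and pileups of 15, 10 and 12 fragments. Their −log10 q values were 7.0, 4.27 and 5.06, and the peaks of replicates 3 and 4 each met that of replicate 1 but not each other. When only peaks with a −log10 q of at least 5 were kept, or when each MYT1L list was reduced to its 12310 strongest peaks, the region no longer reached 3 libraries. A separate peak of replicate 4 (fold 4.10) covered the promoter printed above, and a region of replicates 3 (4.85) and 4 (4.08) lay beyond the other end of the gene.

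HOXD1, an anterior gene, fell just outside the rule of 3 libraries. Replicate 4 had its peak at chr2:176188653-176189172 with a fold of 9.21, a −log10 q of 13.4 and a pileup of 17. Of the 48 HOX peaks it had the highest fold and the highest −log10 q, while pileups were higher in replicate 1 at HOXC12 (19) and HOXB9 (18). The peak of replicate 3 overlapped it with a fold of 4.85 and a −log10 q of 3.93. Replicate 1 had a peak of fold 4.60 on the other side of the promoter, at chr2:176188253-176188458, which did not touch the others, and replicate 2 had none. The gene start thus had peaks of 3 libraries on its 2 sides and a shared region of 2. The antisense noncoding gene HAGLR overlaps these peaks, and peaks do not tell strands apart.

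HOXB3 and HOXB4 stand side by side, and the 41372 bp body of HOXB3 includes HOXB4. HOXB3 acts in hindbrain patterning and HOXB4 is also known for its role in blood stem cells. The strongest peak in the HOXB3 window had folds of 5.37, 5.07, 4.82 and 5.86 in replicates 1 to 4. Replicates 1 and 4 met at chr17:48552159-48552544, inside HOXB3, whereas the peaks of replicates 2 and 3 lay elsewhere in the window, close to HOXB4. HOXB4 itself had folds of 5.07, 4.82 and 4.01 in replicates 2, 3 and 4 and no peak in replicate 1. Each of its 4 peaks stood alone, and that of replicate 2 lay nearest its start, with a summit 175 bp inside the gene.

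HOXA3 and HOXC4 are the other long members with peaks of 3 libraries. In HOXA3, which patterns the pharyngeal arches and hindbrain, the folds were 5.23 in replicate 1, 4.75 in replicate 2 and 4.29 in replicate 4, with none in replicate 3. These 3 peaks lay apart from each other, and that of replicate 1 was inside HOXA5. In HOXC4, the strongest peaks had folds of 4.68 in replicate 1, 3.68 in replicate 3 and 6.26 in replicate 4, with none in replicate 2. Replicates 1 and 4 met at 2 places there. The place at chr12:54017913-54018374 is shared with HOXC5 and HOXC6 (folds 4.68 and 3.99), and that at chr12:54052973-54053375 is in HOXC4 alone (4.36 and 6.26).

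The remaining regions of 2 libraries lay at HOXA13, HOXC12 and HOXD3. At HOXA13, a posterior gene of limb and urogenital development, replicate 1 (5.13) and replicate 4 (4.32) met at chr7:27199566-27200300. The peak of replicate 4, at chr7:27199929-27200300, crosses the gene start, while that of replicate 1, at chr7:27199566-27199958, lies inside the gene. Their summits lay 159 bp before the start in replicate 4 and 333 bp after it in replicate 1. At HOXC12 the peaks of replicate 1 (5.31) and replicate 3 (3.76) met at chr12:53961185-53961624, outside the gene beyond its downstream end. At HOXD3, an anterior gene, replicates 1 (5.41) and 4 (5.13) met at chr2:176171940-176172351, inside the gene. Replicate 2 took part in none of the shared HOX regions. Its 4 HOX peaks, in the windows of HOXC13, HOXC11, HOXB4 together with HOXB3, and HOXA3, were each alone.

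Genes with a peak of 1 library included several of known limb and spinal cord function. HOXD11, HOXD12, HOXD10 and HOXD9 had peaks of replicate 4 alone, with highest folds of 3.81 for HOXD11 and HOXD12, which share 1 peak, and 4.71 for HOXD9 and HOXD10, which share another. HOXC11 and HOXC13, the latter known from hair growth, had peaks of replicate 2 alone (5.88 and 5.20). HOXB1 and HOXB2, hindbrain genes, had peaks of replicate 1 alone (4.51 and 4.03). HOXC9, which sets the identity of thoracic motor neurons, had peaks of replicates 1 (3.72) and 4 (4.75) that lay next to each other inside the gene without touching.

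**Figure D2:**
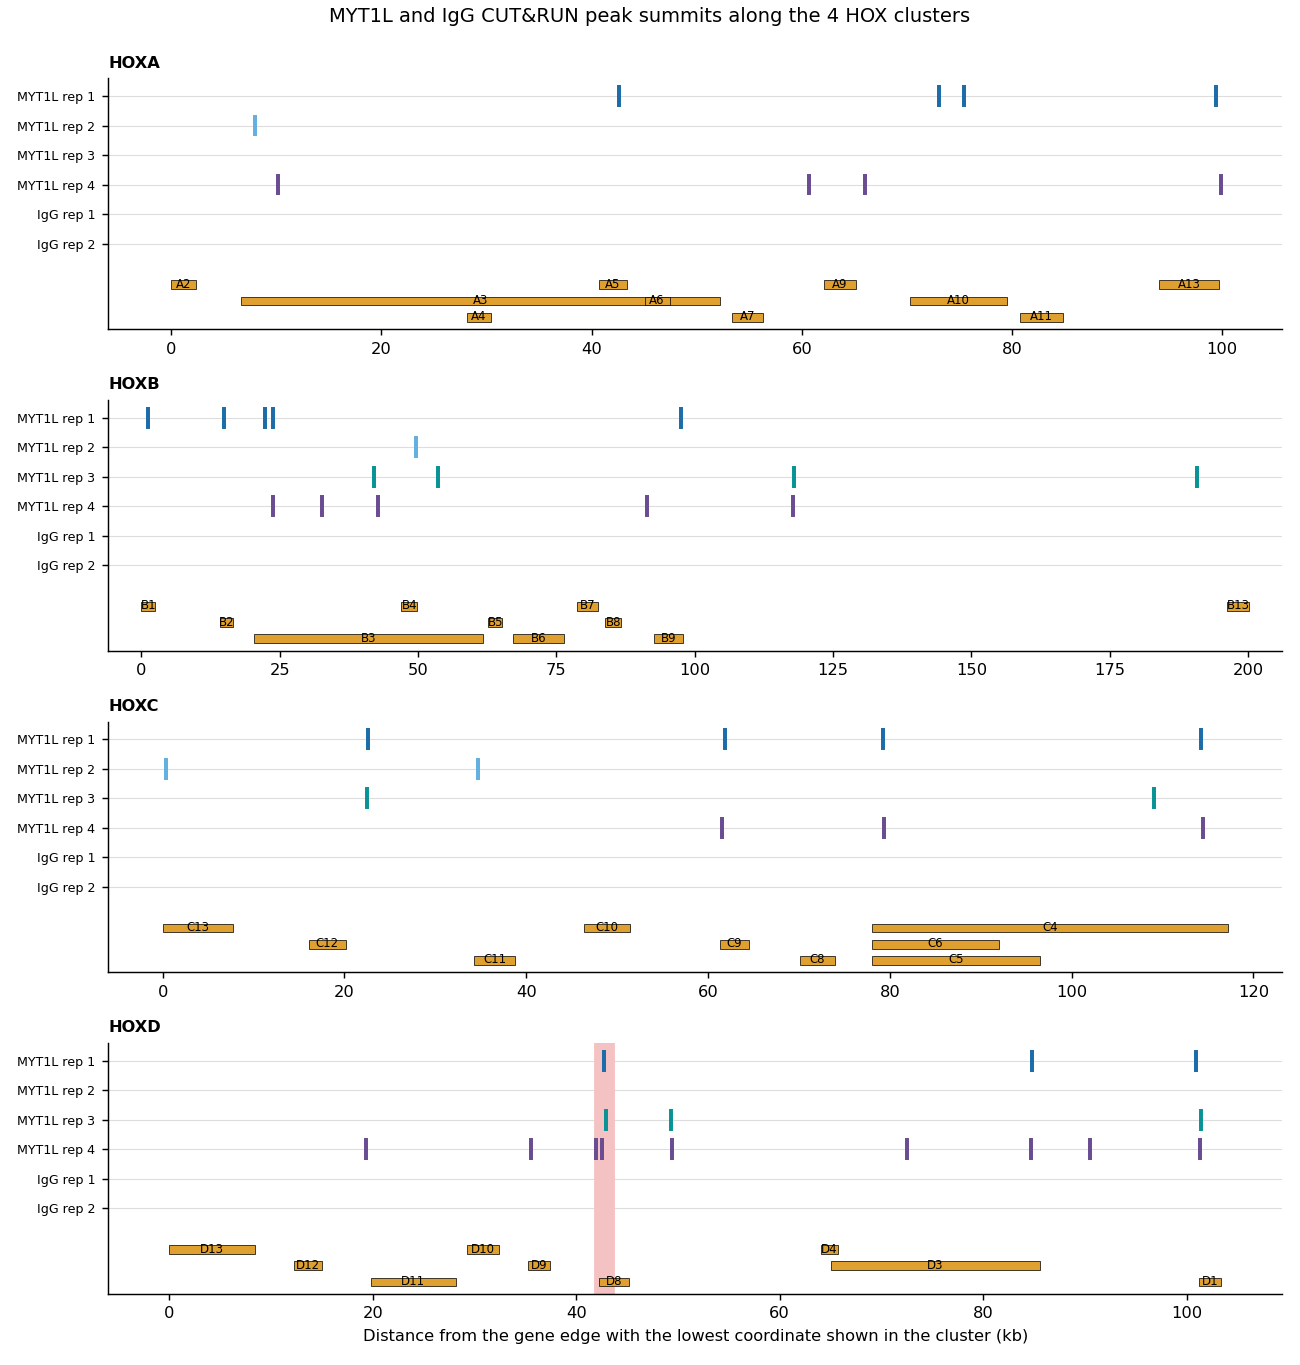
Summits of the peaks of each library along the 4 HOX clusters; the horizontal axis is the distance in kb from the lowest-coordinate gene edge shown, each row is a library and the orange boxes are the bodies of the genes shown. The red band marks the HOXD8 region, where peaks of MYT1L replicates 1, 3 and 4 form 1 region, and both IgG rows are empty. At the start of HOXD1, summits of replicates 1, 3 and 4 also lie close together, but the peak of replicate 1 does not touch the others. Elsewhere peaks of at most 2 libraries form a region.

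The 48 peaks in HOX windows formed 38 regions. Of these, 29 (76.3%) came from 1 library, 8 from 2, 1 from 3 and 0 from all 4. The single-library regions were 9, 4, 4 and 12 for replicates 1 to 4. Of the regions of 2 libraries, 5 joined replicates 1 and 4, 2 joined replicates 3 and 4 and 1 joined replicates 1 and 3. Regions of at least 2 libraries made up 23.7% and regions of at least 3 made up 2.63%, against 54% and 34.7% of the 13773 regions in windows of genes of HOX length. Of the 38 regions, 28 touched a HOX gene body, 15 had their median summit within 1 kb of a HOX gene start, and 12 lay in the windows of more than 1 gene. A further 3 peaks lay in the long gap between HOXB9 and HOXB13, outside every window, and formed 2 regions.

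The sharing of HOX peaks was lower in every MYT1L library. The share of HOX peaks that lay in a region of at least 3 libraries was 6.25%, 0%, 12.5% and 5.0% in replicates 1 to 4, against 57.7%, 79.0%, 71.8% and 45.8% of the peaks in windows of genes of HOX length. The mean difference was −57.6 percentage points ± 16.1 (SD, n = 4), lower in 4 of 4 libraries (exact sign-flip permutation test over 16 sign patterns, two-sided, p = 0.13, the smallest that 4 libraries allow). For regions of at least 2 libraries the means were 33.4% and 80.5%, again lower in 4 of 4 (exact permutation p = 0.13). Each of these shares rests on 4 to 20 HOX peaks a library. A shared peak is counted in every library that shares it, so the 4 shares are not independent. The HOXD8 region alone supplied the HOX peaks shared by 3 libraries, in replicates 1, 3 and 4. These p-values therefore do not measure a spread between independent libraries.

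HOX peaks also had lower −log10 q values, by their medians, than the peaks of the same list. Their folds ran from 3.62 to 9.21 with a median of 4.73, and 36 of the 48 had a −log10 q below the median of their own list. In replicates 1 to 4 these were 9 of 16, 3 of 4, 8 of 8 and 16 of 20. The median pileup of HOX peaks was 15, 8, 10 and 11 fragments, against 14, 9, 13 and 16 for the whole lists. By pileup, HOX peaks were thus higher in replicate 1 and lower in replicates 2 to 4. The median −log10 q of HOX peaks was 4.73, 3.71, 3.91 and 4.16 in replicates 1 to 4, against 5.13, 4.61, 5.11 and 7.20 for the whole lists. The highest-ranking HOX peak of each list was that of HOXC12 in replicate 1 (rank 7236), HOXC11 in replicate 2 (rank 5550), HOXD8 in replicate 3 (rank 12372) and HOXD1 in replicate 4 (rank 8824). Against peaks in windows of genes of HOX length the median −log10 q had a mean difference of −2.43 ± 2.80 (SD, n = 4) and was lower in 4 of 4 libraries (exact permutation p = 0.13, the smallest possible), with replicate 4 contributing the largest gap. HOX peaks thus had a lower median −log10 q and were less shared in every MYT1L library. The median −log10 q was 4.16 against 10.8 in replicate 4 and 3.71 against 4.72 in replicate 2. The part of strength in the sharing was not tested.

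**Figure D3:**
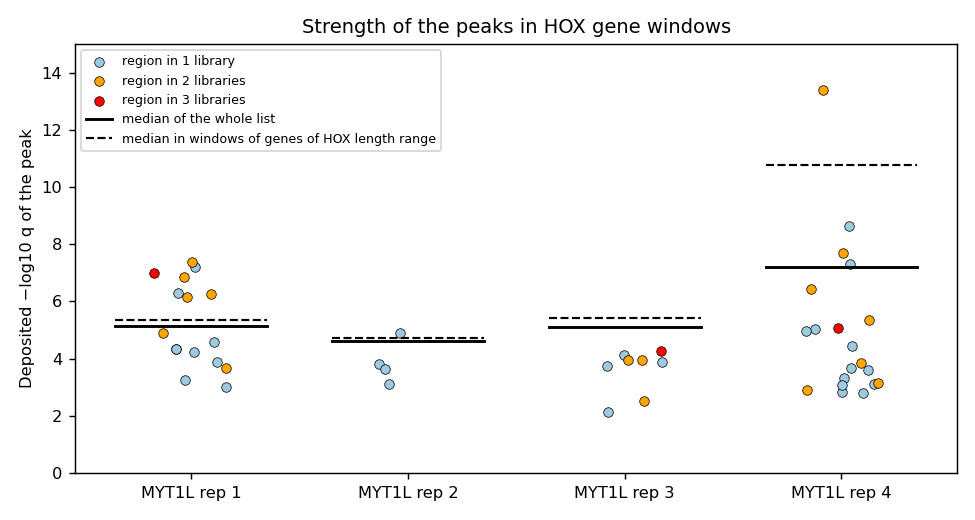
Deposited −log10 q (vertical axis) of each peak in a HOX window, by MYT1L library, coloured by the number of libraries in its region; the solid line is the median of the whole list and the dashed line the median of peaks in windows of genes of HOX length. Most points lie below the solid line of their list. The highest point, the HOXD1 peak of replicate 4 at 13.4, stands above both lines, and so do several points of replicate 1 and the HOXC11 peak of replicate 2 (4.91).

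The number of peaks per length at HOX genes lay near that of genes of HOX length. HOX genes lie closer together, with 39 in 459.3 kb against 12260 in 289871 kb, and this measure was not adjusted for gene number. HOX windows held 2.61 ± 1.59 MYT1L peaks per 100 kb (SD, n = 4) against 2.47 ± 0.959 in windows of genes of HOX length, a mean difference of 0.139 ± 0.654 that was positive in 2 of 4 libraries (exact sign-flip permutation test, p = 0.75). Windows of all protein-coding genes, which include long genes, held 1.10 per 100 kb, less than HOX windows in 4 of 4 libraries (exact permutation p = 0.13). The share of the length covered by peaks was 0.801% ± 0.540 in HOX windows and 1.19% ± 0.737 in windows of genes of HOX length, lower at HOX genes in 4 of 4 libraries with a mean difference of −0.389 percentage points ± 0.274 (exact permutation p = 0.13). Against windows of all protein-coding genes, with 0.518%, the direction was the opposite, higher at HOX genes in 4 of 4 libraries by 0.284 points ± 0.264 (exact permutation p = 0.13). The share of HOX genes with a peak was 43.6%, 12.8%, 17.9% and 51.3% in replicates 1 to 4, against 62.3%, 36.4%, 50.7% and 73.7% of genes of HOX length and 68%, 43%, 57.3% and 77.6% of all genes. Against genes of HOX length this is a mean difference of −24.4 percentage points ± 5.93 (SD, n = 4; exact permutation p = 0.13, lower in 4 of 4). HOX windows, with a median of 13.8 kb, were shorter than those of the length-range genes, with a median of 23.8 kb. The 7714 genes no longer than the 90th percentile of HOX gene length came closer, with a median window of 18.3 kb, a set chosen after seeing the data. Of these, 77% had a peak of any library, 36.3% a reproducible region, and 56.7%, 31.2%, 45.1% and 68.6% a peak in replicates 1 to 4. The HOX share remained lower in 4 of 4 libraries, with a mean difference of −19.0 percentage points ± 5.93 (SD, n = 4; exact permutation p = 0.13, the smallest possible).

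The clusters were compared over their whole span, from 5 kb before the first to 5 kb after the last gene. In HOXA, peaks covered 1.01%, 0.161%, 0.193% and 1.14% of the span in MYT1L replicates 1 to 4, a mean of 0.624% ± 0.520 (SD, n = 4). HOXB had 0.682%, 0.175%, 0.567% and 0.537%, a mean of 0.490% ± 0.219. HOXC had 1.05%, 0.484%, 0.359% and 0.822%, a mean of 0.679% ± 0.316. In HOXD the values spread most, at 0.974%, 0%, 0.781% and 2.91%, a mean of 1.17% ± 1.23. IgG libraries covered 0% of every span. HOXD thus had the highest mean, but replicate 4 supplied 9 of its 15 peaks and replicate 2 supplied none, and the 4 clusters overlapped in their values.

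For no pair of clusters was the mean difference larger than its spread between libraries. The largest mean difference was between HOXB and HOXD, −0.675 percentage points ± 1.15 (SD, n = 4; exact sign-flip permutation test, two-sided, p = 0.25, adjusted p = 0.75 by Benjamini-Hochberg over the 6 pairs). The other 5 pairs had exact permutation p-values of 0.25 to 0.75, each with an adjusted p of 0.75, in a design that cannot go below 0.13. HOXA minus HOXC was the smallest difference at −0.0550 ± 0.271. Without replicate 4, HOXC minus HOXD turned from −0.486 to 0.0464 and HOXA minus HOXB from 0.134 to −0.0211, so the direction between those pairs rested on 1 library. The same library set the size of the other differences from HOXD, since without it HOXB minus HOXD was −0.111 and HOXA minus HOXD was −0.132 in place of −0.541, and HOXA minus HOXC, at −0.178, became the largest of the 6. By genes, a peak of any library was found at 8 of 11 HOXA, 6 of 10 HOXB, 7 of 9 HOXC and 7 of 9 HOXD genes, and a region of at least 2 libraries at 1, 1, 4 and 3. The shares were 84.1% and 65.3% over all protein-coding genes, and 81.1% and 60% over genes of HOX length. HOXC4, HOXC5 and HOXC6 share 1 of these regions. Counted as regions, the spans of HOXA, HOXB, HOXC and HOXD held 1, 2, 3 and 4 of at least 2 libraries.

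**Figure D4:**
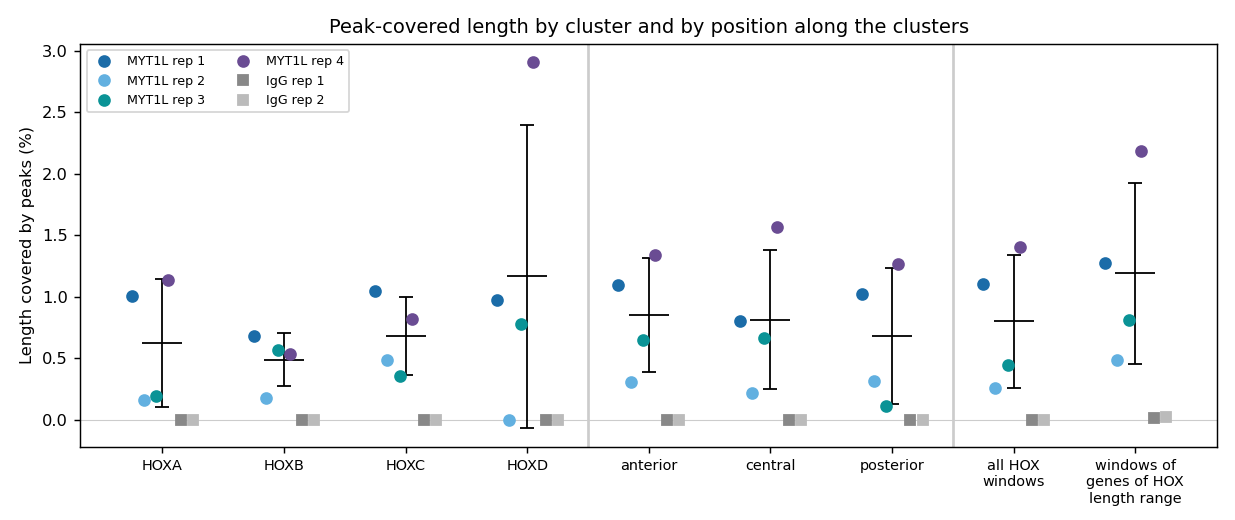
Share of length covered by peaks (vertical axis, %) in each library for the 4 cluster spans, for the windows of anterior, central and posterior HOX genes, and for all HOX windows beside windows of genes of HOX length; points are libraries, and the line and bars are the mean ± SD of the 4 MYT1L libraries. The clusters overlap, HOXD reaches from 0% to 2.91%, and the IgG squares lie at 0 in every HOX column.

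Along the clusters, a difference between anterior and posterior genes was not detectable beyond the spread between libraries. Peaks covered 1.10%, 0.305%, 0.646% and 1.34% of the anterior windows in replicates 1 to 4 (mean 0.848% ± 0.463), and 1.02%, 0.316%, 0.115% and 1.27% of the posterior windows (mean 0.680% ± 0.552). Central windows lay between them at 0.815% ± 0.562. The anterior value exceeded the posterior one in 3 of 4 libraries, by 0.168 percentage points ± 0.246 (SD, n = 4; exact sign-flip permutation test, two-sided, p = 0.25), and without replicate 3 the difference was 0.0471. By genes, 7 of 8 anterior, 9 of 15 central and 12 of 16 posterior members had a peak of any library. Peaks of at least 3 libraries were found at 3 anterior and 3 central genes and at 0 posterior genes. A peak of any library was found at 84.1% of all genes and 81.1% of genes of HOX length, and peaks of at least 3 at 56.8% and 49.3%. Window length differed between the classes. The windows of HOXA3, HOXB3 and HOXC4, which had peaks of at least 3 libraries, are 55.6, 51.4 and 49.1 kb long, while posterior windows reach at most 19.3 kb.

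By paralog group, every member of groups 3, 9 and 12 had a peak of any library. These groups hold only 3, 4 and 2 genes, and 84.1% of all protein-coding genes and 81.1% of genes of HOX length had such a peak. Some of the peaks are shared with a neighbour of another group, as with HOXD9 and HOXD10 or HOXD12 and HOXD11. Group 9, with HOXA9, HOXB9, HOXC9 and HOXD9, had peaks at all 4 genes but no region of 2 libraries. Group 3, with HOXA3, HOXB3 and HOXD3, had peaks at all 3 and regions of 2 libraries at HOXB3 and HOXD3, and its members are among the longest of the clusters. HOXA2 and HOXB2 of group 2 differed, with no peak at HOXA2, which gives the second pharyngeal arch its identity. In group 13, HOXA13 and HOXC13 had peaks and HOXB13 and HOXD13 had none.

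Several stretches of the clusters had no peak in any library. In HOXB, no peak fell within the 37.5 kb at chr17:48582298-48619840, which hold the bodies of HOXB5, HOXB6, HOXB7 and HOXB8, and none within the 72.4 kb at chr17:48646682-48719101 between HOXB9 and HOXB13. In HOXA, the longest empty stretches were 32.3 kb around HOXA4 and 23.6 kb around HOXA11, a gene of the forearm. In HOXC, 26.5 kb around HOXC10, a gene of lumbar motor neurons, had none, and in HOXD the same held for 24.2 kb with HOXD12 and HOXD13 and for 22.8 kb with HOXD4. HOXD13, which shapes the digits, lies at the outer end of its cluster.

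Regions were sparser beside the clusters than within them, without a test and without adjustment for the number of genes. The cluster spans hold the 39 HOX genes, while the stretches on the lower-coordinate side of HOXA and HOXC hold no protein-coding gene. In the 200 kb on either side of each cluster, 1600 kb in all, there were 23 regions (1.44 per 100 kb), of which 5 were reproducible, or 0.313 per 100 kb. Of these 5, 3 lay on the HOXB13 side of HOXB, 1 lay on each side of HOXD, and 0 lay beside HOXA or HOXC. The 567.9 kb of the cluster spans held 40 regions (7.04 per 100 kb) and 1 reproducible one, or 0.176 per 100 kb. Beside HOXD, LNPK, an endoplasmic reticulum gene, had a region at chr2:176001717-176002625 with folds of 9.74, 8.01, 7.09 and 17.0 in replicates 1 to 4. On the other side, MTX2, a mitochondrial gene, had a region at chr2:176269269-176269990 with folds of 6.41, 6.33, 6.34 and 12.4. Both thus had peaks of all 4 libraries, replicate 2 included, while the HOXD span between them had no peak of replicate 2. SKAP2 had a region of all 4 libraries with a fold of 7.25 ± 0.84 (SD, n = 4), on the HOXA chromosome but beyond the 200 kb counted here. Of the 22 genes listed as neighbours or relatives of the clusters, 20 (90.9%) had a peak of any library and 5 (22.7%) a reproducible region, against 84.1% and 48% of all protein-coding genes.

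Forkhead and DLX genes, other transcription factor families, served for comparison. The 45 forkhead genes have a median window of 14.9 kb, near the 13.8 kb of HOX genes, but some are long, and their mean window is 68.8 kb. Of these, 36 had a peak of any library and 16 (35.6%) a reproducible region. The share of genes with a peak was lower at HOX than at forkhead genes in 4 of 4 MYT1L libraries, with a mean difference of −20.8 percentage points ± 5.70 (SD, n = 4; exact permutation p = 0.13, the smallest possible). Of the 6 DLX genes, homeobox genes of the ventral forebrain that lie in pairs, all 6 had a peak and 1, DLX2, a reproducible region, and the HOX share was lower in 4 of 4 libraries, with a mean difference of −14.4 points ± 12.8 (exact permutation p = 0.13). HOX windows held more peaks per 100 kb than forkhead windows, 2.61 against 1.27, in 4 of 4 libraries (exact permutation p = 0.13). DLX windows, with a mean of 14.9 kb, held 4.25 per 100 kb, and the difference of HOX minus DLX was −1.64 ± 2.81, negative in 3 of 4 libraries (exact permutation p = 0.25).

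Genes whose products act with or on the clusters are given as counts. Their windows are longer than those of HOX genes, with medians of 149 kb for the TALE partners and 41.7 to 54.8 kb for the other 3 lists. Their shares are set beside the 84.1% of all protein-coding genes with any peak and the 48% with a reproducible region, whose median window is 34.1 kb. Of the 9 TALE genes, homeodomain partners of HOX proteins, 9 had a peak and 5 (55.6%) a reproducible region. PBX3 had it in all 4 libraries (6.25 ± 0.91), and PBX4 (6.31 ± 2.68) had it in 3. Of 25 Polycomb genes, all had a peak and 18 (72.0%) a reproducible region, with PCGF1 (8.30 ± 2.78), RNF2 (7.97 ± 2.79) and PHC1 (6.90 ± 1.63) in all 4 libraries. Of 15 trithorax and demethylase genes, all had a peak and 10 (66.7%) a reproducible region, with ASH2L (6.80 ± 1.77), KMT2A (5.97 ± 1.36) and KDM6B (5.47 ± 1.54) in all 4. Retinoid genes, whose signal turns HOX genes on in the embryo, had 2 of 18 (11.1%) with a reproducible region, RDH10 (9.20 ± 1.82, 4 libraries) and RARB (5.87 ± 0.75, 3 libraries), and 15 (83.3%) with any peak. These differences from the background were not tested. The values in parentheses are mean folds ± SD over the libraries with a peak.

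**Figure D5:**
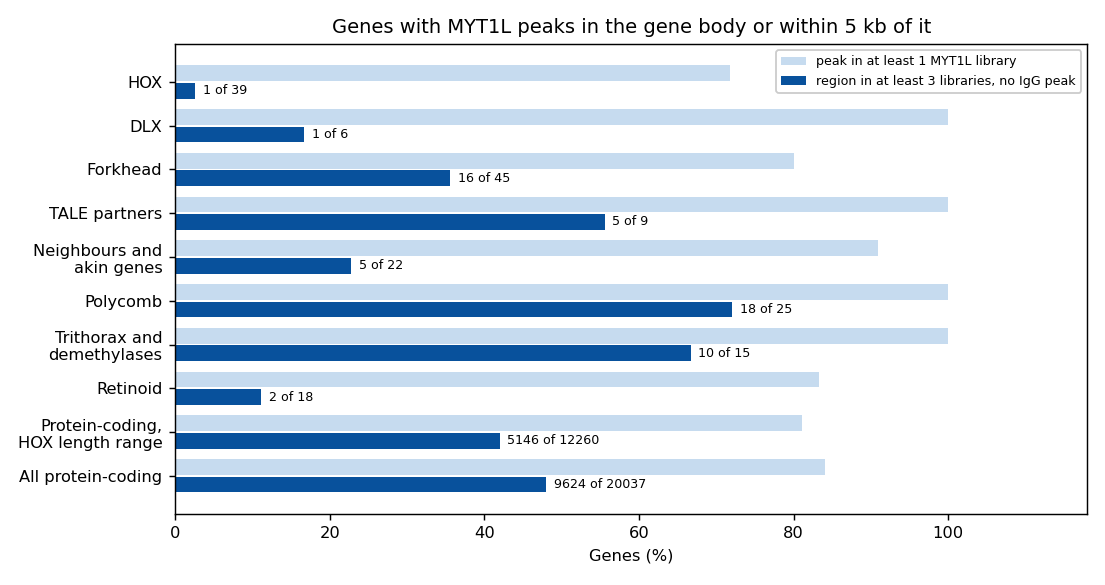
Share of genes (horizontal axis, %) with a peak of at least 1 MYT1L library (light bars) and with a region of at least 3 libraries and no IgG peak (dark bars), for the HOX genes, the lists of comparison and all protein-coding genes; numbers give the genes with such a region. The light bar of the HOX genes is at 71.8% and their dark bar at 2.56%, below the dark bars of all other sets, whose windows differ in length.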

How the data were processed

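MYT1L occupancy was measured by CUT&RUN in 4 MYT1L and 2 IgG libraries, grouped by sample title. The peak names in the MYT1L lists carry sample numbers 1 higher than the titles, and the titles were followed. Peaks were called with MACS2 on hg38, per the submitters' processing notes. The threshold, the control library and the aligner are not given in the sources used here. Each deposited peak has a fold over background (a ratio), −log10 p and −log10 q values and a score. The deposited values are the authors' own and served to rank, filter and describe peaks list by list.

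Peaks on chromosomes 1 to 22, X and Y were joined into regions by at least 1 bp of overlap. Whole-number pileups were recovered from the deposited fold and −log10 p for at least 99.9% of peaks of each library (scipy 1.17.1, tolerance 0.0002, −log10 p up to 200). The lowest called pileup was 4 to 7. On simulated peaks 100% of 3823 pileups were recovered, and 0 of 770 simulated regions differed from a direct count. Coordinates are counted from 1, as hg38, which is GRCh38. Promoter sequences are from RefSeq (GRCh38.p14).

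Conditions were compared over libraries with exact permutation tests (numpy 2.4.6), with Benjamini-Hochberg adjustment over the 6 pairs of clusters. Members were counted by their number of libraries, and values were given for those with the most libraries, for genes just inside and outside 3 of 4, and for at most 3 genes of each related list. The members and lists were chosen with earlier results of these data known. Single values of some genes are not reported here. No genome sequence was used, so exons and introns of the regions are not given. Alternatives were the number of libraries, a −log10 q minimum, equal list lengths, the overlap, the window, the IgG filter, a replicate block and leaving out each library.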

Additional observations from a re-analysis of the deposited data

How the results depend on the processing

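HOXD8 was the 1 gene with a reproducible region, and 1 region was reproducible, also with an overlap of at least 100 bp, with the gene body and 1 kb or the body alone, with IgG regions kept and without either IgG library. With at least 2 libraries there were 9 genes and 9 regions. Requiring all 4 libraries, setting a −log10 q minimum of 5, or taking equal numbers of top peaks left 0 genes and 0 regions. These settings use fewer peaks or require more libraries. With all 4 libraries required, 5077 of 20037 protein-coding genes and 2555 of 12260 genes of HOX length had such a region. With gaps up to 500 bp bridged, added after the data were seen, there were 3 genes and 2 regions. Over the fits without 1 library the genes ranged from 1 to 9 and the regions from 1 to 9, and leaving out a MYT1L library also relaxed the rule to 2 of 3.

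The difference of 12 between MYT1L and IgG peak numbers was 0 with equal numbers of top peaks in all 6 libraries and 9.33 to 14.7 without 1 library. The replicate numbers pair no samples by any label, and with the replicate block, over replicates 1 and 2, the difference was 10 (exact permutation p = 0.5). A −log10 q minimum of 5 gave 3.75 (exact permutation p = 0.467).

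Between clusters, HOXA minus HOXB reversed to −0.0335 with gene windows in place of spans, added after the data were seen, and ranged from −0.0211 to 0.303 without 1 library. HOXA minus HOXC ranged from −0.178 to 0.0346, reversed without replicate 2, and HOXC minus HOXD from −0.810 to 0.0464, reversed without replicate 4. The cause was not tested. HOXA minus HOXD, HOXB minus HOXC, HOXB minus HOXD and anterior minus posterior kept their direction in the alternatives run, but not their size. Without 1 library they ranged from −0.775 to −0.132, −0.321 to −0.129, −0.959 to −0.111 and 0.0471 to 0.228, and were nearest 0 without replicates 4, 1, 4 and 3. These tests cannot pass 0.05 with 4 libraries. The lowest called pileup was 5 to 7 fragments in the MYT1L libraries, so weaker occupancy at HOX genes was not detectable at this depth.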
